A study of Mus musculus with 21 samples.

Results

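The parathyroid hormone receptor Pth1r, its second natural ligand Pthlh, the receptor activity-modifying proteins Ramp1, Ramp2 and Ramp3, and the beta-arrestins Arrb1 and Arrb2 were followed in cultured mouse osteoblasts treated with 6 analogs of parathyroid hormone (PTH). The 7 genes were listed by symbol for what they do at the receptor, with earlier results of these data known. Each was read from the array row that carried its symbol alone. Such a row was found for 6 of the 7, out of 22180 genes named in this way. Pthlh, which encodes PTH-related protein, had no row under its symbol, its older names or its gene identifier, and was not analysed here.

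The cells were bone-forming cells from the skull vault of C57BL/6J mice aged 7 to 10 days. They were used at passage 2, kept in differentiation medium from day 3, moved at day 10 to serum-free medium for 24 h, and then treated for 4 h with vehicle or 1 analog. hPTH(1-34), hPTH(1-31) and PTH(1-36) begin at the first residue of the hormone, and the text calls them intact. bPTH(3-34), hPTH(7-34) and bPTH(7-34) start later, and the text calls them truncated. The last is a bovine amide with D-Trp12 and Tyr34. Its dose was 1000 nM against 100 nM for the 5 others, so it is set beside them without a test against them. hPTH(7-34) and PTH(1-36) each came from a supplier of their own, and the other 4 analogs from a shared one. Cells of each of the 3 cultures per treatment were prepared independently, which gave 21 arrays in 7 groups. The cultures were bulk samples of cells for which the labels name no engineered allele, and fewer cells of a type and less RNA per cell cannot be told apart.

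Pth1r is a class B G protein-coupled receptor that binds both PTH and PTH-related protein and signals through Gs to cyclic AMP and through Gq to phospholipase C. Once activated, it is phosphorylated by receptor kinases and bound by beta-arrestins, which uncouple it from G proteins, bring it to clathrin-coated pits and can scaffold further signalling. RAMPs are small proteins with a single membrane span that travel with class B receptors to the cell surface and alter which ligands they bind. With the calcitonin receptor-like receptor, Ramp1 forms the receptor for calcitonin gene-related peptide, and Ramp2 and Ramp3 form receptors for adrenomedullin.

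Signals are log2 values, so that 1 unit is a 2-fold change. Probe sets differ in brightness, so levels are compared between treatments and not between genes. The exceptions are checks of cell type markers and of dim genes against the median gene. The arrays were alike as a whole, with medians from 3.49 to 3.61 and correlations of 0.990 to 0.993 between arrays of a group. Of 9 listed genes known to respond to PTH, 8, 9 and 8 rose with hPTH(1-34), hPTH(1-31) and PTH(1-36). Genes called higher made up 3.9%, 4.38% and 3.68% of all genes there. None of the 9 was called against vehicle with a truncated analog (limma). They were listed with earlier results of these data known, so this is not an independent check of the treatment labels. Macrophage markers were prominent in these cultures, with Lyz2 at 12.2 and Csf1r at 10.2 in vehicle, and 10 of 10 lay above the median gene. Osteoblast markers were also high, with Col1a1 at 13.2, and 6 of 7 lay above the median gene, the exception being Bglap. Of 8 endothelial markers 3 lay above it, and Pecam1, Tie1, Emcn, Vwf and Egfl7 lay below. Of 6 chondrocyte markers 5 lay above it, with Sox9 at 9.58 in vehicle, and Matn1 lay below. Of 6 muscle and smooth muscle markers 4 lay above it, with Acta2 at 12.3, and Des and Myod1 lay below. Of 5 osteoclast markers 2 lay above it, with Ctsk at 9.35, and Oscar, Dcstamp and Calcr lay below. Of 5 adipocyte markers 1 lay above it, and Adipoq, Fabp4, Plin1 and Lep lay below.

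Pth1r and Ramp3 are the 2 members called against vehicle with the intact analogs. The 250 bases before their RefSeq start sites (GRCm38.p6) are therefore shown, read 5′ to 3′ on the strand of the gene. The window of the 1 Ramp3 start site in this table is chr11:6658283-6658532 on the plus strand, and its end lies inside the span that RefSeq gives the gene, which begins at 6658506. Pth1r has 3 windows, chr9:110747146-110747395, chr9:110743687-110743936 and chr9:110742611-110742860, all on the minus strand, so that the windows of starts 2 and 3 lie inside the span of the longest transcript. Capitals mark every match to the motifs searched on either strand.
Ramp3: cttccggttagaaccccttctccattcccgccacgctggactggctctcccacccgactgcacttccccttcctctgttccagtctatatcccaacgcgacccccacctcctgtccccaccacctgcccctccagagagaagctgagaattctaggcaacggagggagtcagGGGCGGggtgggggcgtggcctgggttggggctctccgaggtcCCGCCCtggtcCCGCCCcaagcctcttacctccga
Pth1r start 1: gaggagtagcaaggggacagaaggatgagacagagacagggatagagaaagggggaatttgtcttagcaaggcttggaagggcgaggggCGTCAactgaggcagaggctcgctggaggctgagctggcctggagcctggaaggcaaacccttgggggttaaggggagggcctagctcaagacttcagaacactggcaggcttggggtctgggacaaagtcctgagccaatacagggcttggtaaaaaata
Pth1r start 2: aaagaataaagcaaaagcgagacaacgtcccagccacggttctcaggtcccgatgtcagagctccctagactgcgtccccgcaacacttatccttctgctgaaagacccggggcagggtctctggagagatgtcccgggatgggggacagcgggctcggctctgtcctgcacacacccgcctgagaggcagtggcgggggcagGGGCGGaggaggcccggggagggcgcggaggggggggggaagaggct
Pth1r start 3: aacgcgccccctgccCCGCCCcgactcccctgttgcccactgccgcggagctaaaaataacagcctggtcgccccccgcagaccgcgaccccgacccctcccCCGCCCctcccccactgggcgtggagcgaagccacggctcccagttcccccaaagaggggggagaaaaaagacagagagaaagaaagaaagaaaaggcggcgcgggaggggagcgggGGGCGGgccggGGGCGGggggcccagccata

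The motifs were the cyclic AMP response element TGACGTCA, its shorter core TGACG, which lies inside it, the AP-1 element TGANTCA, the NR4A element AAAGGTCA and the GC box GGGCGG. Ramp3 held 3 GC boxes and none of the other motifs. Pth1r start 1 held the short core once, at position -161 from the start on the opposite strand. Start 2 held 1 GC box and start 3 held 4. The same letters were found in 32.7% of 32851 windows of this length for the GC box, 17.8% for the short core, 6.75% for AP-1, 1.55% for the complete cyclic AMP element and 1.34% for NR4A. The GC content of the windows was 65.2% for Ramp3 and 56.0%, 65.6% and 70.4% for Pth1r starts 1 to 3. These matches describe the letters only. Windows for Ramp1 and Pthlh were read but are not shown, and Ramp2, Arrb1 and Arrb2 had none in the table.

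The receptor itself fell with each intact analog and was not called with any truncated one. Pth1r measured 7.20, 7.30 and 7.12 on the vehicle arrays. It measured 6.40, 6.04 and 5.89 with hPTH(1-34), 6.20, 6.17 and 5.95 with hPTH(1-31), and 6.09, 6.11 and 6.37 with PTH(1-36). The 9 intact arrays thus lay at 5.89 to 6.40, all below every vehicle array. In these 3 comparisons 23.4%, 22.1% and 20.5% of all genes had groups that do not overlap, in either direction. Values with the truncated analogs were 7.06, 7.12 and 6.99 for bPTH(3-34), 7.07, 7.16 and 7.24 for hPTH(7-34), and 7.32, 7.05 and 7.05 for bPTH(7-34). These overlapped vehicle, and the 12 vehicle and truncated arrays together lay at 6.99 to 7.32.

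**Figure D1:**
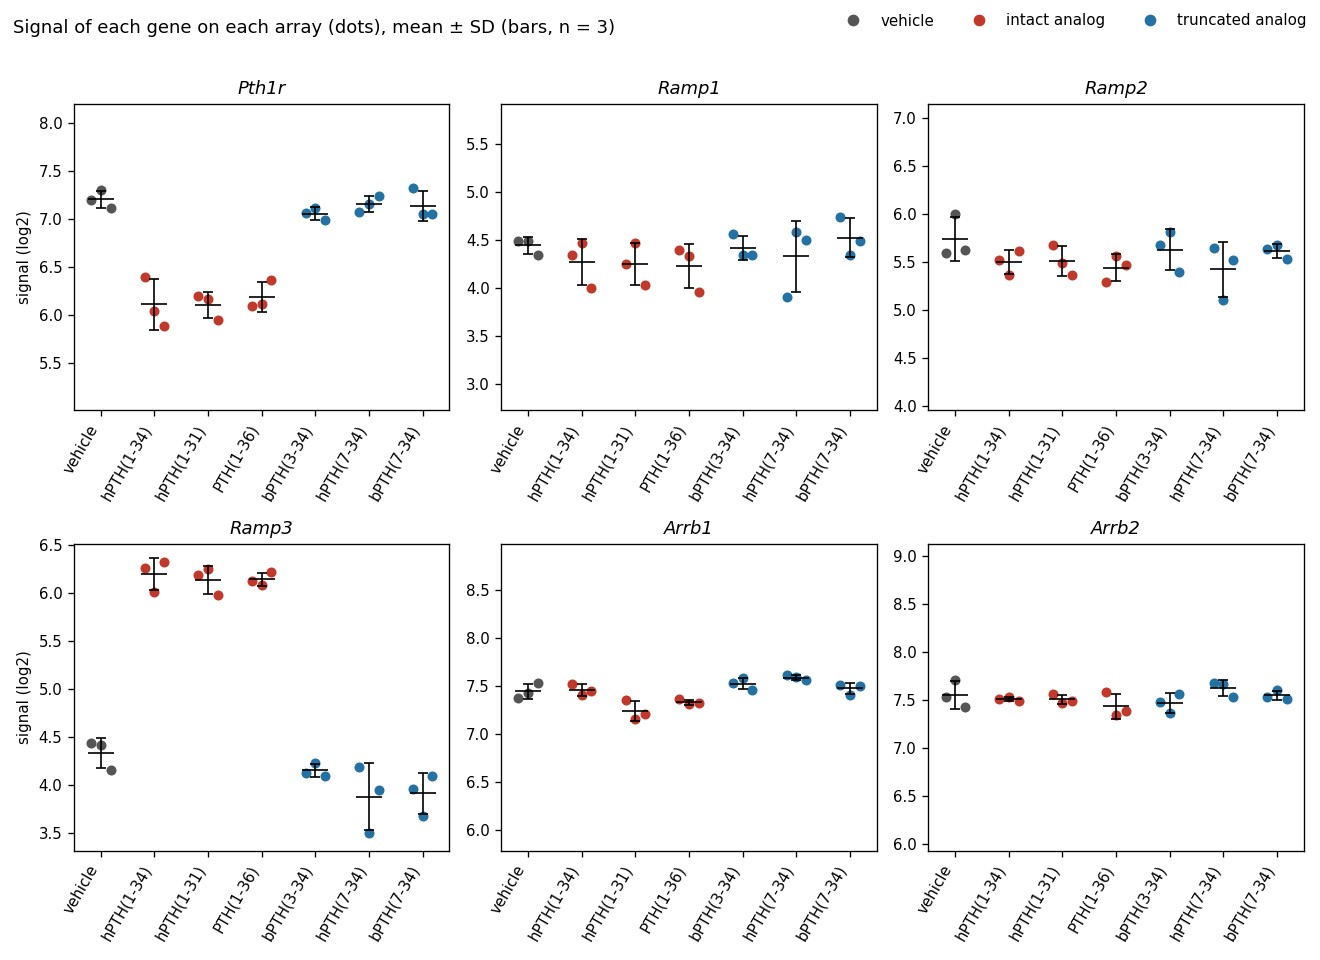
Signal (log2) of the 6 measured genes on each of the 21 arrays, by treatment; dots are arrays and bars are the mean ± SD of 3, and every panel spans the same log2 range. Pth1r is lower and Ramp3 higher on all 9 intact arrays than on the 12 vehicle and truncated arrays, while the other 4 genes overlap between the 2 sets.

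With hPTH(1-34), Pth1r was 2.14-fold lower than vehicle, a log2 difference of -1.10 ± 0.12 (SE, n = 3 and 3, 95% interval -1.36 to -0.84, limma adjusted p = 5.45e-06). The fall with hPTH(1-31) was also 2.14-fold (adjusted p = 5.07e-06, limma) and that with PTH(1-36) was 2.02-fold (adjusted p = 1.66e-05, limma). Genes called in either direction made up 8.64%, 8.7% and 7.23% of all genes in these comparisons, in the same order. Genes that were called lower made up 4.74%, 4.32% and 3.54%. The size of the fall placed Pth1r 44th, 41st and 41st among the genes that were lower. By absolute size of the difference it was 196th, 209th and 200th of 22180 genes. Differences for the truncated analogs were -0.15 for bPTH(3-34) (95% interval -0.41 to 0.11), -0.05 for hPTH(7-34) (-0.31 to 0.21) and -0.07 for bPTH(7-34) (-0.33 to 0.19). None was called, and the lowest adjusted p of the 3 was 0.952 (limma). All 6 comparisons use the same 3 vehicle arrays, so they are not independent of each other.

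Ramp3 moved the opposite way with the same analogs. It measured 4.44, 4.42 and 4.16 in vehicle, against 6.26, 6.01 and 6.33 with hPTH(1-34). Values were 6.19, 6.25 and 5.98 with hPTH(1-31) and 6.13, 6.09 and 6.22 with PTH(1-36). The lowest intact array, at 5.98, stood well above the highest vehicle array, at 4.44. The rise was 3.63-fold with hPTH(1-34) (log2 1.86 ± 0.15, SE, n = 3 and 3, 95% interval 1.55 to 2.17, limma adjusted p = 8.29e-08), 3.48-fold with hPTH(1-31) and 3.50-fold with PTH(1-36), with adjusted p-values of 1.09e-07 and 1.47e-07. Genes called higher made up 3.9%, 4.38% and 3.68% of all genes in these comparisons. By absolute size of the difference Ramp3 was 52nd, 66th and 48th of 22180 genes.

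With the truncated analogs Ramp3 lay at or under the vehicle level. It measured 4.13, 4.23 and 4.10 with bPTH(3-34), 4.19, 3.50 and 3.95 with hPTH(7-34), and 3.96, 3.68 and 4.10 with bPTH(7-34). Of these 9 arrays, 7 were below the lowest vehicle array. The truncated arrays, at 3.50 to 4.23, and the vehicle mean of 4.34 lay below the median gene at 4.42. Such values are dim, and no detection call is given for them. The differences were -0.19 (95% interval -0.50 to 0.13), -0.46 (-0.77 to -0.15) and -0.43 (-0.74 to -0.11). None was called, with limma adjusted p-values of 0.957, 0.423 and 0.841, although the intervals of both (7-34) peptides, which are not adjusted for the number of genes, lie below 0. All 3 bPTH(7-34) arrays were below all 3 of vehicle. Groups that do not overlap, in either direction, were found for 8.48% of all genes in this comparison.

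The other 2 RAMPs were not called in any comparison. Ramp1 measured 4.49, 4.49 and 4.34 in vehicle, 4.34, 4.47 and 4.00 with hPTH(1-34), 4.25, 4.47 and 4.03 with hPTH(1-31), and 4.39, 4.33 and 3.96 with PTH(1-36). With the truncated analogs it measured 4.56, 4.34 and 4.34 for bPTH(3-34), 3.90, 4.58 and 4.50 for hPTH(7-34), and 4.74, 4.34 and 4.49 for bPTH(7-34). Every group overlapped vehicle. The differences from vehicle ran from -0.21 to 0.08 with a 95% interval of ± 0.37 each, so that changes of that size could not be detected. The lowest limma adjusted p was 0.586.

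Ramp2 measured 5.59, 6.00 and 5.62 in vehicle, where replicate 2 stood highest of all 21 arrays. It measured 5.52, 5.36 and 5.61 with hPTH(1-34), 5.67, 5.49 and 5.36 with hPTH(1-31), and 5.29, 5.56 and 5.47 with PTH(1-36). Values with the truncated analogs were 5.68, 5.81 and 5.39 for bPTH(3-34), 5.64, 5.10 and 5.52 for hPTH(7-34), and 5.63, 5.67 and 5.53 for bPTH(7-34). The PTH(1-36) arrays alone lay wholly below vehicle, as happened in 1 direction or the other for 20.5% of all genes there. The difference was -0.30 (95% interval -0.61 to 0.01, limma adjusted p = 0.292). Over the 6 analogs the differences ran from -0.32 to -0.11, each ± 0.31. A further row annotated to both Vps25 and Ramp2 was not used.

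**Figure D2:**
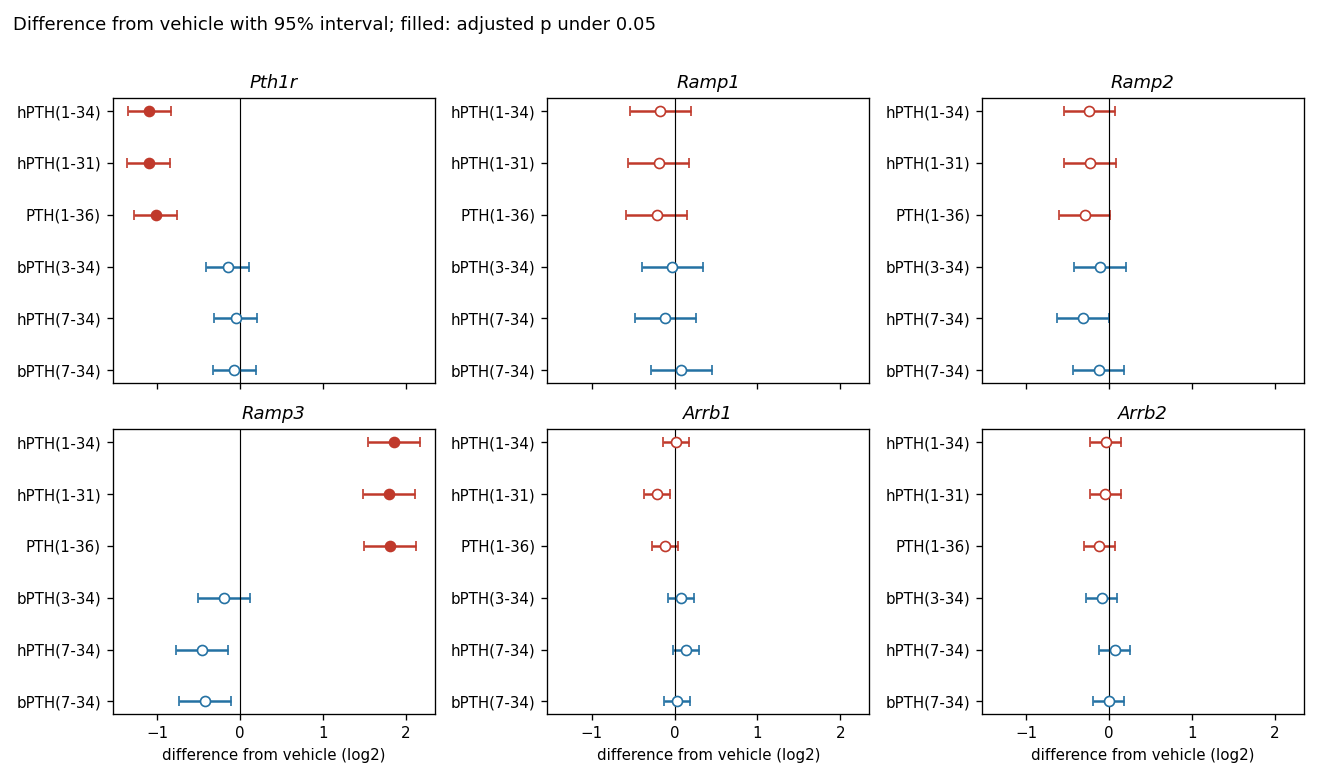
Difference of each analog from vehicle (log2) with its 95% interval from the limma fit, for the 6 measured genes; filled points have an adjusted p under 0.05 over all genes. The filled points are Pth1r and Ramp3 with the 3 intact analogs, at -1.10 to -1.02 and 1.80 to 1.86.

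Arrestin transcripts stayed within a narrow span. Arrb1, which encodes beta-arrestin 1, measured 7.37, 7.43 and 7.53 in vehicle, 7.52, 7.40 and 7.45 with hPTH(1-34), 7.35, 7.15 and 7.21 with hPTH(1-31), and 7.36, 7.31 and 7.32 with PTH(1-36). With the truncated analogs it measured 7.53, 7.58 and 7.46 for bPTH(3-34), 7.61, 7.59 and 7.56 for hPTH(7-34), and 7.51, 7.41 and 7.50 for bPTH(7-34). Against vehicle, the hPTH(1-31) and PTH(1-36) arrays lay wholly below, the hPTH(7-34) arrays wholly above, and the others overlapped. Groups that do not overlap were found for 22.1%, 20.5% and 12.3% of all genes in these 3 comparisons. None of the 6 differences from vehicle was called: they ran from -0.21 with hPTH(1-31) (95% interval -0.36 to -0.05, limma adjusted p = 0.108) to 0.14 with hPTH(7-34) (-0.01 to 0.30, adjusted p = 0.644).

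Arrb2, which encodes beta-arrestin 2, measured 7.53, 7.71 and 7.42 in vehicle, 7.51, 7.53 and 7.49 with hPTH(1-34), 7.56, 7.47 and 7.49 with hPTH(1-31), and 7.58, 7.34 and 7.38 with PTH(1-36). Values with the truncated analogs were 7.48, 7.36 and 7.56 for bPTH(3-34), 7.68, 7.66 and 7.53 for hPTH(7-34), and 7.53, 7.60 and 7.51 for bPTH(7-34). All groups overlapped vehicle. The differences ran from -0.12 to 0.07, each ± 0.19, and the lowest limma adjusted p was 0.531.

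Counted over the list, 2 of the 6 measured genes were called with each intact analog, 1 higher and 1 lower, beside 8.64%, 8.7% and 7.23% of all genes. The members were chosen with earlier results of these data known, so this count is a description only. With bPTH(3-34), hPTH(7-34) and bPTH(7-34), 0 of 6 were called, beside 0%, 0.0721% and 0% of all genes in limma. At an unadjusted p under 0.05 the members numbered 0, 2 and 1 in those 3 comparisons, and all genes 1313, 1817 and 1151. The moderated F test, which asks whether a gene varied over the 7 groups, called Pth1r (adjusted p = 2.71e-07, limma), Ramp3 (1.39e-10) and Arrb1 (0.0349), beside 12.2% of all genes. The call of Arrb1 was lost without 11 of the 21 arrays, left out 1 at a time, with adjusted p-values up to 0.120 (limma). These were all 3 arrays of hPTH(7-34), replicates 2 and 3 of hPTH(1-31) and of PTH(1-36), replicates 1 and 2 of bPTH(3-34), and replicate 3 of hPTH(1-34) and of bPTH(7-34). It was also lost after centring the arrays (0.0508), a further quantile normalization (0.0764) and with every row of the table tested (0.0793, limma). The F test's adjusted p was 0.777 for Ramp1, 0.614 for Ramp2 and 0.705 for Arrb2.

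The order of the groups shows where the steps lie. For Pth1r the order from high to low was vehicle, hPTH(7-34), bPTH(7-34), bPTH(3-34), PTH(1-36), hPTH(1-34) and hPTH(1-31). Neighbouring groups overlapped at every step except the step of 0.87 from bPTH(3-34) to PTH(1-36). For Ramp3 the order was hPTH(1-34), PTH(1-36), hPTH(1-31), vehicle, bPTH(3-34), bPTH(7-34) and hPTH(7-34), and neighbours overlapped except at the step of 1.80 from hPTH(1-31) to vehicle. For Arrb1 the truncated analogs came first, followed by hPTH(1-34), vehicle, PTH(1-36) and hPTH(1-31), with a single step, of 0.11 from vehicle to PTH(1-36), where ranges were apart. For Ramp1, Ramp2 and Arrb2 every pair of neighbours overlapped.

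The 5 analogs used at 100 nM for 4 h were compared directly in 10 pairs. The vehicle values do not enter these differences, but all arrays share in the estimate of each gene's spread. Pth1r and Ramp3 were each called in 6 of the 10, those between an intact and a truncated analog. In these 6 pairs Pth1r was 0.87 to 1.05 lower with the intact analog (log2, limma adjusted p from 9.02e-06 to 0.000104). Ramp3 was 1.99 to 2.32 higher with the intact analog (adjusted p from 4.68e-09 to 4.17e-08). Against hPTH(1-34), bPTH(3-34) had 9.32% of all genes called and hPTH(7-34) 10.9%. Against hPTH(1-31) the shares were 9.14% and 10.4%, and against PTH(1-36) they were 7.21% and 8.49%. The calls of both genes were the same when p-values were adjusted over all 10 pairs together.

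hPTH(7-34) differs from hPTH(1-34) by the absence of residues 1 to 6 and also in its supplier, and these cannot be told apart here. Between these peptides Pth1r differed by 1.05 (95% interval 0.79 to 1.31) and Ramp3 by -2.32 (-2.63 to -2.01), taken as hPTH(7-34) minus hPTH(1-34). bPTH(3-34) lacks residues 1 and 2 and carries the bovine sequence. Against hPTH(1-34) it differed by 0.95 for Pth1r and -2.05 for Ramp3. Between hPTH(7-34) and bPTH(3-34) the differences were 0.10 for Pth1r (-0.16 to 0.36) and -0.27 for Ramp3 (-0.59 to 0.04), neither called, and 0.0496% of all genes were.

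At the other end of the peptide, hPTH(1-31) lacks the last 3 residues of hPTH(1-34), and PTH(1-36) extends beyond it by 2. PTH(1-36) also came from its own supplier, which cannot be told apart from its length here. hPTH(1-31) minus hPTH(1-34) was -0.00 for Pth1r (95% interval -0.26 to 0.26) and -0.06 for Ramp3 (-0.37 to 0.25). PTH(1-36) minus hPTH(1-34) was 0.08 for Pth1r (-0.18 to 0.34) and -0.05 for Ramp3 (-0.37 to 0.26). PTH(1-36) minus hPTH(1-31) was 0.08 for Pth1r (-0.18 to 0.34) and 0.01 for Ramp3 (-0.31 to 0.32). No difference was called here, and the intervals leave room for differences of up to 0.34 for Pth1r and 0.37 for Ramp3. In these 3 pairs the share of all genes called was 0%, 0.00451% and 0.00451%. In the first, where limma called 0 genes, 994 had an unadjusted p under 0.05.

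**Figure D3:**
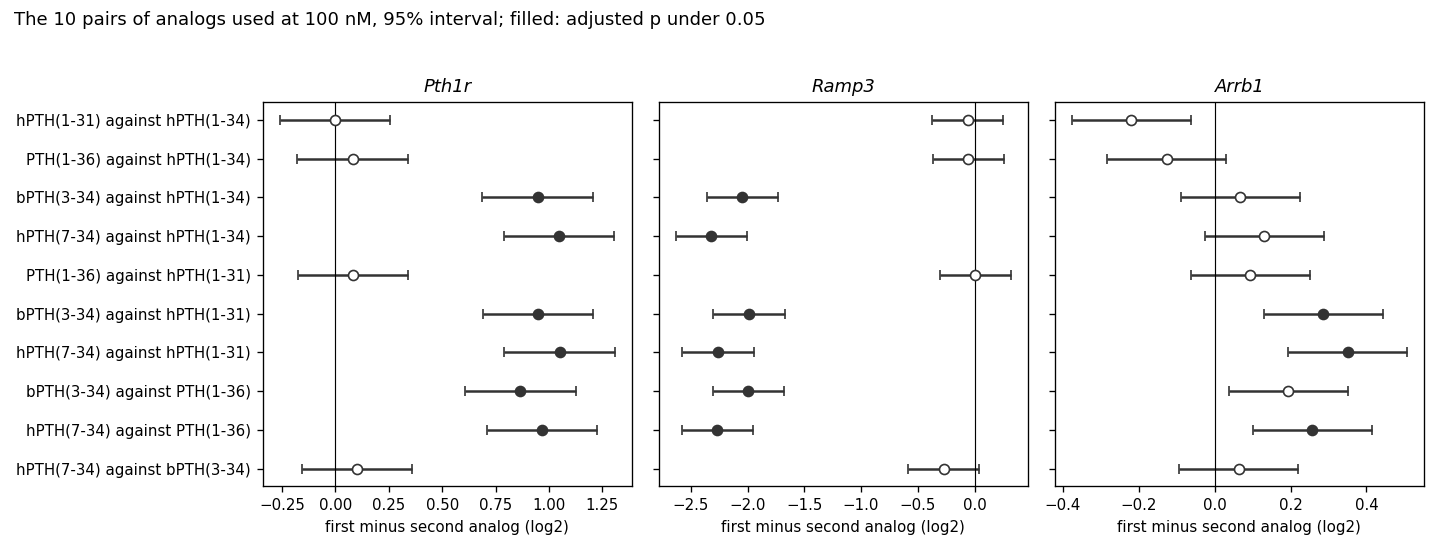
Differences in Pth1r, Ramp3 and Arrb1 (log2, first analog minus second) with 95% intervals in the 10 pairs used at 100 nM; filled points have an adjusted p under 0.05, and each panel has its own scale. For Pth1r and Ramp3 the filled points are the 6 pairs of an intact and a truncated analog, and the 3 intact pairs lie around 0.

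Arrb1 was called in 3 of the 10 pairs, all small. It was 0.29 higher with bPTH(3-34) than with hPTH(1-31) (limma adjusted p = 0.019), 0.35 higher with hPTH(7-34) than with hPTH(1-31) (0.00412), and 0.26 higher with hPTH(7-34) than with PTH(1-36) (0.040). The first call was lost without hPTH(1-31) replicate 2 (0.0982) or 3 (0.0615), or bPTH(3-34) replicate 1 (0.0599) or 2 (0.0823). The third was lost without any 1 array of PTH(1-36) or hPTH(7-34), or bPTH(3-34) replicate 1, with adjusted p-values of 0.0527 to 0.119. It was also lost when adjusted over the 10 pairs together (0.0591), after a further quantile normalization (0.105) and with every row of the table tested (0.0797). The second held without each array in turn. With only the compared groups in the fit, all 3 were lost (0.159, 0.0819 and 0.199). hPTH(1-31) minus hPTH(1-34) was -0.22 for Arrb1 (95% interval -0.38 to -0.06), with all 3 arrays below, and was not called. Groups that do not overlap were found for 8.32% of all genes in that pair. Ramp1, Ramp2 and Arrb2 were called in 0 of 10 pairs.

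Pooling the matched doses, the mean of the 3 intact analogs was set against the mean of bPTH(3-34) and hPTH(7-34). Pth1r was 1.96-fold lower with the intact analogs (log2 -0.97 ± 0.08, SE, 9 against 6 arrays, 95% interval -1.14 to -0.80, limma adjusted p = 3.50e-08). Ramp3 was 4.42-fold higher (2.15 ± 0.10, interval 1.94 to 2.35, limma adjusted p = 8.78e-12). Arrb1 was 1.16-fold lower (-0.21 ± 0.05, interval -0.31 to -0.11, limma adjusted p = 0.00338), although the hPTH(1-34) arrays, at 7.40 to 7.52, overlapped the truncated ones. This comparison called 20.3% of all genes, 8.08% higher and 12.2% lower. Ramp1 (-0.12), Ramp2 (-0.04) and Arrb2 (-0.06) were not called, with limma adjusted p-values of 0.526, 0.817 and 0.523.

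Across the 21 arrays Pth1r and Ramp3 had a Pearson correlation of -0.94. The arrays fall into 2 separate sets, 9 intact and 12 others, and the correlation of their deviations from the group means was 0.20, so the pooled value describes the step between the sets.

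**Figure D4:**
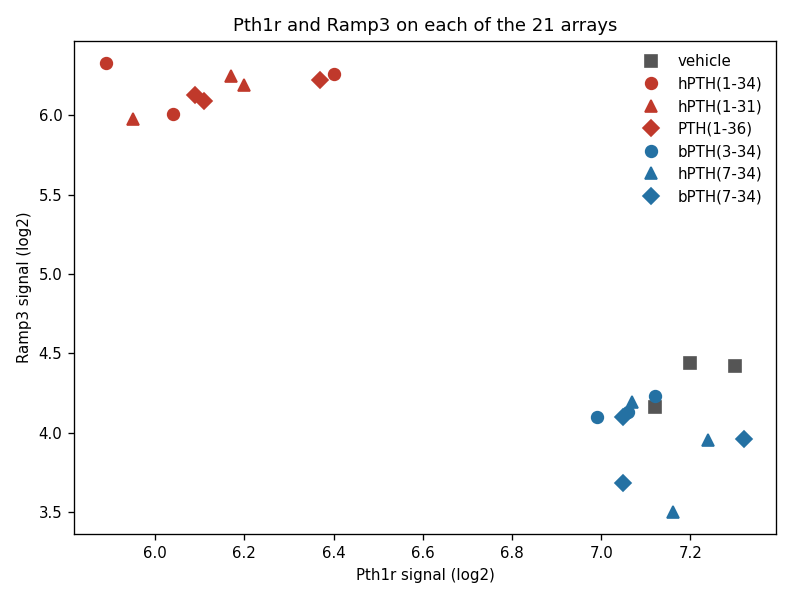
Pth1r signal (log2, horizontal) against Ramp3 signal (log2, vertical) on each of the 21 arrays; colours mark vehicle, intact and truncated analogs and shapes the analog. The 9 intact arrays form a set at Pth1r 5.89 to 6.40 and Ramp3 5.98 to 6.33, apart from the 12 others at 6.99 to 7.32 and 3.50 to 4.44.

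The genes whose signals ran most like Pth1r over the 21 arrays were Ptpn21, Calhm5, Ccn1, Tnfrsf11b and Ypel2, with Pearson r from 0.969 to 0.979. Tnfrsf11b encodes osteoprotegerin, the decoy receptor for the osteoclast-forming cytokine RANKL, and Ccn1 a secreted matrix protein. Those that ran most opposite were Peg3, Hsph1 and Slc2a13, at -0.972 to -0.971. For Ramp3 the most alike were Lrrc17, Gja1, Pdzrn4, Peg3 and Vdr (0.980 to 0.989), of which Gja1 encodes the gap junction protein connexin 43 and Vdr the vitamin D receptor. The most opposite were Snx7, Lgr5 and Ebf1 (-0.981 to -0.977). These values share the treatment groups: within groups r was 0.37 to 0.62 for the genes most like Pth1r and 0.26 to 0.78 for those most like Ramp3. For the most opposite genes it was -0.40 to -0.35 with Pth1r. With Ramp3 it was 0.16 for Snx7, -0.38 for Lgr5 and -0.17 for Ebf1.

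For Arrb1 the most alike were Hsd17b11, Amigo1, Pan2, Mettl7a1 and Efemp1 (0.845 to 0.866) and the most opposite Atp12a, Pax1 and Epgn (-0.834 to -0.808). For Arrb2 they were Ptk2b, Stard3, Cyba, Cux1 and Bcl2l1 (0.784 to 0.832), and Tpd52l1, Card10 and Vwc2 (-0.775 to -0.739). For Ramp1 they were Tex261, Ywhab, Cnr2, Mmp8 and Rfng (0.743 to 0.803), and Arhgef26, Hsp90b1 and Cfap36 (-0.765 to -0.761). For Ramp2 they were Krt33a, Mdh1b, Krtap5-2, Tbx19 and Higd1b (0.721 to 0.742), and Blcap, Zfp972 and Wdr64 (-0.779 to -0.710). These are the extremes over all other genes and carry no test.

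Genes that act beside the receptor were read from lists by function. The counts stand beside 8.64%, 8.7% and 7.23% of all genes called with hPTH(1-34), hPTH(1-31) and PTH(1-36), of which 3.9%, 4.38% and 3.68% were higher and 4.74%, 4.32% and 3.54% lower. In short lists a count of 1 or 2 genes is too small to set the list apart from these shares. The G protein subunits had 21 of 22 listed genes measured, and 2 rose and 3 fell with hPTH(1-34), 2 rose and 1 fell with hPTH(1-31), and 2 rose and 2 fell with PTH(1-36). The median difference of the list was -0.04, -0.04 and -0.03, against -0.01, -0.02 and -0.02 over all genes. Gnas, which encodes the Gs alpha subunit that carries the PTH signal to adenylyl cyclase, was not called against vehicle, with differences of -0.02, 0.02 and -0.04 for the 3 intact analogs. Neither were Gnaq and Gna11, of the Gq family. These 3 were singled out after their values were seen.

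Gnai1, which encodes an inhibitory alpha subunit, fell with the 3 intact analogs, with differences of -0.80, -0.60 and -0.71 (limma adjusted p = 3.61e-05, 0.000714 and 0.000155). Gnao1, of the same inhibitory family, rose by 0.56, 0.49 and 0.49 (0.000666, 0.00216 and 0.00259, limma). The second and the third of these calls were lost with only the compared groups in the fit (0.0587 and 0.0725). Gnal, a relative of Gs known from olfactory neurons, was dim in vehicle at 2.79 and rose by 0.78, 0.85 and 0.69. Its call with hPTH(1-34) (limma adjusted p = 0.00952) was lost without vehicle or hPTH(1-34) replicate 2 (0.0650 to 0.0689). That with PTH(1-36) (0.0251, limma) was lost without replicate 1 or 2 of vehicle or of PTH(1-36) (0.0514 to 0.142). Both were lost with only the compared groups in the fit (0.115 and 0.0708). Gnaz differed by -0.58, -0.33 and -0.64, called with hPTH(1-34) (0.0118) and PTH(1-36) (0.00721) but not hPTH(1-31) (0.185). Leaving out vehicle replicate 1 or hPTH(1-34) replicate 2 ended the first of these calls (0.0743 to 0.0826, limma), and the fit of only the compared groups ended both (0.110 and 0.0576).

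The receptor kinases, which mark active receptors for arrestin, had 4 of 5 listed genes measured. Grk6 alone was called, with hPTH(1-31), at -0.37 (limma adjusted p = 0.0174). Leaving out vehicle replicate 2 or hPTH(1-31) replicate 1 ended that call (0.0699 to 0.0868), as did the fit of only the compared groups (0.100). With hPTH(1-34) and PTH(1-36) the differences were -0.30 and -0.27 (0.0556 and 0.102, limma). The first of these was called without bPTH(7-34) replicate 1 or 3 (0.0393 to 0.0419). With bPTH(3-34), hPTH(7-34) and bPTH(7-34) Grk6 differed from vehicle by -0.12, -0.14 and -0.22, not called. In the pooled comparison of intact against truncated analogs it was called at -0.19 (limma adjusted p = 0.0379). That call was lost in 10 of 29 alternatives. Alpha-arrestins, which share the arrestin fold and act as adaptors for ubiquitin ligases, had 6 of 6 measured, of which 2, 2 and 1 rose. Arrdc3 rose by 0.79, 0.82 and 0.83 (adjusted p = 0.000743, 0.000513 and 0.00057, limma). Arrdc4 differed by 0.55, 0.51 and 0.43 (0.0233, 0.0338 and 0.0871, limma). Its call with hPTH(1-34) was lost without replicate 1 or 2 of vehicle or of hPTH(1-34) (0.0676 to 0.122). That with hPTH(1-31) was lost without any vehicle array or hPTH(1-31) replicate 2 or 3 (0.0591 to 0.134), and PTH(1-36) was called without hPTH(7-34) replicate 3 (0.0200). The medians of the alpha-arrestins were 0.04, -0.02 and -0.04, near those of all genes.

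The 17 genes of clathrin, its AP2 adaptors, dynamins, early endosomes and receptor ubiquitination had 0 called against vehicle with any of the 6 analogs in limma. The pooled comparison of intact against truncated analogs called 5 of the 17, 1 higher and 4 lower, beside 20.3% of all genes. Their median differences with the intact analogs were 0.04, 0.02 and 0.00. The pooled comparison also called 47.6% of the 21 G protein subunits, 50% of the 4 receptor kinases and 50% of the 6 alpha-arrestins. Its shares were 35.7% of the 14 recycling and retromer genes and 55.6% of the 9 other RAMP partners and ligands. They were 27.3% of the 11 other class B receptors, 40% of the 10 Hedgehog genes and 0% of the 3 other PTH family genes. Of the 14 genes of recycling and retromer, 1 rose and 1 fell with each intact analog. Slc9a3r2, which encodes the scaffold NHERF2 that binds the tail of Pth1r, fell, with differences of -0.86, -0.84 and -0.90 (limma adjusted p = 0.000146, 0.000175 and 0.0001). Ezr, which encodes ezrin, a linker between membrane scaffolds and actin, rose by 0.57, 0.73 and 0.49 (0.00338, 0.000344 and 0.0127, limma). Leaving out vehicle replicate 1 or PTH(1-36) replicate 2 ended the last of these calls (0.0655 to 0.0716), as did the fit of only the compared groups (0.182).

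**Figure D5:**
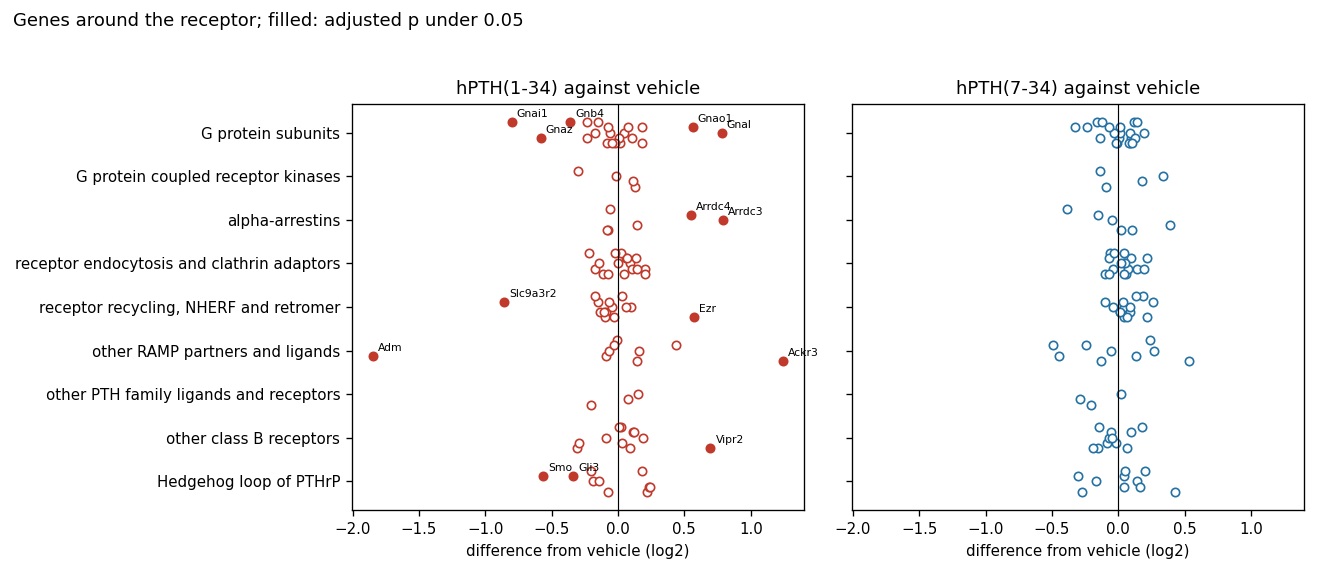
Difference from vehicle (log2) of each measured gene in 9 lists around the receptor, with hPTH(1-34) on the left and hPTH(7-34) on the right; each point is a gene and filled points have an adjusted p under 0.05. With hPTH(7-34) no point in these lists is filled, and with hPTH(1-34) Adm at -1.85 and Ackr3 at 1.24 lie farthest out.

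Among the other partners and ligands of RAMPs, 9 of 10 were measured, and 1 rose and 1 fell with each intact analog. Ackr3, an atypical receptor that takes up chemokines and adrenomedullin, rose by 1.24, 1.21 and 1.14 (limma adjusted p = 9.6e-07, 1.25e-06 and 3.3e-06). Adm, which encodes adrenomedullin, fell, with differences of -1.85, -1.67 and -1.70 (1.35e-06, 4.7e-06 and 4.57e-06, limma). Calcrl, the receptor that needs a RAMP to bind adrenomedullin, was measured at 6.42 in vehicle and differed by 0.14, 0.12 and 0.10, not called. It was chosen after its values were seen. Calcr, the calcitonin receptor, was at 2.60 in vehicle and was not called. The medians of this list were -0.01, 0.00 and 0.02.

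Of the other ligands and receptors of the PTH family, Pth, Pth2 and Pth2r, 0 of 3 were called against vehicle with any of the 6 analogs in limma. Of 11 other class B receptors, 1 was called with each intact analog, which is near the share of all genes. This was Vipr2, a receptor for vasoactive intestinal peptide, which rose by 0.70, 0.71 and 0.62 (limma adjusted p = 0.00825, 0.00678 and 0.0221). The third of these was lost without vehicle replicate 1 or 3 or PTH(1-36) replicate 1 or 2 (0.0789 to 0.104, limma), and with every row of the table tested (0.0503). The second and the third were lost with only the compared groups in the fit (0.0729 and 0.128).

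PTH-related protein and Indian hedgehog regulate each other in the growth plate, and 10 of 11 listed genes of the Hedgehog pathway were measured. None rose, and 2, 2 and 1 fell with the intact analogs, with list medians of -0.11, -0.02 and -0.12. Smo, the membrane transducer of the pathway, fell, with differences of -0.56, -0.43 and -0.48 (limma adjusted p = 0.000997, 0.00972 and 0.00455). Leaving out vehicle replicate 1 or hPTH(1-31) replicate 3 ended the call with hPTH(1-31) (0.0548 to 0.0598). With only the compared groups in the fit, the calls with hPTH(1-31) and PTH(1-36) were lost (0.0937 and 0.0845). Gli3, a transcription factor of the pathway that acts mainly as a repressor, differed by -0.34, -0.44 and -0.23 (0.0179, 0.0022 and 0.126), and its call with hPTH(1-34) was lost without any of 4 arrays, vehicle replicates 1 and 3 and hPTH(1-34) replicates 1 and 2 (0.0533 to 0.0990, limma). With only the compared groups in the fit, its calls with hPTH(1-34) and hPTH(1-31) were lost (0.154 and 0.0798).

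In the list of known PTH responders, the strongest by the F test were Vdr, Nr4a2, Nr4a3 and Tnfsf11, with rises of 3.82, 2.79, 3.60 and 3.12 with hPTH(1-34). Nr4a2 and Nr4a3 encode orphan nuclear receptors induced by cyclic AMP, and Tnfsf11 encodes RANKL. The innate immune list, chosen with earlier results of these data known, was the sole list with calls for a truncated analog. Its counts therefore describe the list and do not test it. It held 6, 7 and 6 of 13 genes that rose with the intact analogs, where 3.9%, 4.38% and 3.68% of all genes were called higher. With hPTH(7-34) 3 of its genes rose, where 0.0721% of all genes were called. Its median there was 0.37 against 0.00 over all genes. Tnf, an inflammatory cytokine, and Ccl2, a chemokine for monocytes, rose with hPTH(7-34) by 0.95 and 1.16 (limma adjusted p = 0.0252 and 0.0155). Both calls were lost without vehicle replicate 1 or 3, and that of Tnf also without hPTH(7-34) replicate 2 or 3 (0.0526 to 0.248). With only the compared groups in the fit both were lost (0.599 for Tnf and 0.538 for Ccl2), and Tnf was lost with every row of the table tested (0.0617). Both genes also rose with hPTH(1-34), hPTH(1-31) and PTH(1-36), all called. The differences were 1.40, 1.48 and 1.22 for Tnf and 1.15, 1.05 and 1.12 for Ccl2. Cxcl5 and Nfkbia, the other genes of the list named by rule, differed by 0.48 and 0.55 with hPTH(7-34), not called. Nfkbia was called with hPTH(7-34) under trend and robust moderation (limma adjusted p = 0.0310). It was also called when p-values were adjusted over all comparisons with vehicle together (0.0131). This peptide came from its own supplier, and peptide and supplier cannot be told apart here. With hPTH(7-34), Pth1r, the RAMPs and the arrestins had no call.

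The levels of other cell types were read beside these results. Against vehicle, 8.64%, 8.7% and 7.23% of all genes were called with hPTH(1-34), hPTH(1-31) and PTH(1-36). The mean level of the 10 macrophage markers was 9.66 to 9.80 on the vehicle arrays, 9.43 to 9.76 on the intact arrays and 9.69 to 9.96 on the truncated arrays, and 0 of 10 were called against vehicle with an intact analog in limma. That of the 8 endothelial markers was 3.92 to 3.97, 3.77 to 3.97 and 3.72 to 4.00, with 0, 1 and 1 higher and 1 lower with each intact analog. The mean level of 6 smooth muscle and muscle markers was 7.18 to 7.37 in vehicle, 7.34 to 7.65 on the intact arrays and 7.06 to 7.29 on the truncated arrays, with Des and Myod1 below the median gene. Of the 6, 1 rose with each intact analog and 1 fell with hPTH(1-34) and hPTH(1-31). The median difference of the 6 was -0.02, -0.17 and -0.17. The part of these genes in the values of Pth1r and Ramp3 was not tested. That of 7 osteoblast markers was 9.0 to 9.28 in vehicle, 8.78 to 9.47 and 8.98 to 9.29. Of these 7, 1 rose with hPTH(1-34) and hPTH(1-31), and 1 fell with each intact analog. Of the 6 chondrocyte, 5 adipocyte and 5 osteoclast markers, 0 were called against vehicle with an intact analog in limma. The pooled comparison of intact against truncated analogs called 20.3% of all genes. It called 3 of the 6 chondrocyte, 1 of the 5 adipocyte, 0 of the 5 osteoclast and 1 of the 10 macrophage markers. It also called 2 of the 8 endothelial, 2 of the 6 muscle and 2 of the 7 osteoblast markers.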

How the data were processed

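RNA (100 ng) from 21 osteoblast cultures was measured on Affymetrix Mouse Gene 2.0 ST arrays, 3 for each of 7 treatments. The deposited values are log2 signals by RMA in Affymetrix Expression Console, per the submitters' processing notes. The steps, the array's genome build and the base of the logarithm are not given in the sources used here, and log2 was read from the method and the range (0.25 to 13.6). RMA as usually run brings the arrays to 1 common distribution, so a shift shared by all genes cannot be seen. The table gives no detection call, and the number of arrays limits the precision.

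Of 41345 rows, 25335 were in the platform annotation, 23521 with 1 symbol. The row with the highest mean stood for a gene, which left 22180 genes, and 0 columns were unused. All arrays entered 1 limma 3.58.1 fit of 7 groups (R 4.3.3, lmFit and eBayes, two-sided). Each comparison's p-values had the Benjamini-Hochberg adjustment across the 22180 genes, with calls at 0.05, and the procedure was tested on simulated data. Intervals are 95% and are not adjusted.

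The members and lists were chosen with earlier results of these data known. The rule names every member, up to 4 genes a list by the F test among those called against vehicle, and the 5 most alike and 3 most opposite genes by Pearson r, without predicted genes, clones and small RNAs. Of 121 listed genes beside the receptor and 51 markers, 4 of each were not analysed here. Nherf1 and Nherf2 were read as Slc9a3r1 and Slc9a3r2.

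Sequences are from RefSeq, and 4 of 7 members had a promoter window. Alternatives covered a filter on dim genes, centring, a further quantile normalization, all rows, averaged rows, moderation, the arrays in the fit, a replicate block, joint adjustment and leaving out each array.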

Additional observations from a re-analysis of the deposited data

How the results depend on the processing

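Every difference of Pth1r and Ramp3 kept its direction where called and its side of the threshold under all alternatives run, against vehicle, between analogs and pooled. Pth1r ran from -1.24 to -0.99 with hPTH(1-34), and Ramp3 from 1.77 to 1.96 (log2). Over the 6 genes, 1073 of 1074 alternative values against vehicle and 173 of 173 pooled values kept their side. The exception was Arrb1 with hPTH(1-31), which among genes above the median level stood at -0.21 with a limma adjusted p of 0.0330, where fewer genes were tested (range over its alternatives 0.0330 to 0.389). Ramp1, Gnal and Gnaz were dim and dropped out under that filter, which uses the mean over all 21 arrays. Ramp3 passed it with a mean of 4.97 against 4.42 for the median gene, while its vehicle mean was 4.34. Ramp3 thus passed through its intact arrays, so its calls under this filter are no further support for it. The F test call of Arrb1 was lost in 3 of 7 other settings and without 11 of 21 arrays. Between analogs, 17 of 1790 values lost a call, all of Arrb1. With only the compared groups in the fit, its adjusted p-values were 0.0819, 0.159 and 0.199 in limma. That fit also ended calls against vehicle of Gnao1, Gnal, Gnaz, Grk6, Arrdc4, Ezr, Vipr2, Smo, Gli3, Tnf and Ccl2, and that of Nfkbia with PTH(1-36) (0.0600) and of Arrdc4 with hPTH(1-34) (0.0540). It holds fewer arrays. With every row tested, calls of Arrdc4 with hPTH(1-34) and hPTH(1-31) and of Gnal with PTH(1-36) were lost (0.0523, 0.0723 and 0.0563, limma).

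Whether the replicate numbers pair the arrays cannot be settled here. Of 63 same-numbered pairs of arrays in different groups, 1 had deviations correlated above 0.1 (median 0.03, range -0.08 to 0.16). Of 126 pairs with different numbers, 0 did (median -0.01, range -0.14 to 0.09). With the replicate number as a block, no call of the 6 genes changed: Pth1r kept -1.10 with hPTH(1-34) (limma adjusted p = 1.48e-05) and 2 of 6 were called there. The call of Tnf with hPTH(7-34) was lost (limma adjusted p = 0.0583). Genes called moved from 1917 to 2190 with hPTH(1-34), 1930 to 2179 with hPTH(1-31), 1603 to 1945 with PTH(1-36) and 16 to 15 with hPTH(7-34).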
